A study of Rattus norvegicus with 12 samples.

Results

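The genes described here encode the thin filament of striated muscle: the sarcomeric actins (Acta1, Actc1), the troponins (Tnnc1, Tnni1, Tnni3, Tnnt1, Tnnt2) and the tropomyosins (Tpm1, Tpm2, Tpm3). They were chosen by name, 10 genes in all, and a probe set was counted for a gene where the platform annotation gave that gene as its only symbol. This found 29 probe sets, among the 31099 on the array, for 9 of the 10 genes. Actc1, cardiac alpha-actin, had none, since its 5 probe sets were annotated to Acta2 and Actc1 together and were read for neither. Of the 29 probe sets, 20 were bright enough to be tested, and they covered 8 genes, because the 1 probe set of Tnnt1 was too dim. They are 20 of the 18625 probe sets tested.

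Expression was measured on 12 one-colour Affymetrix rat arrays, each holding RNA of 1 pool of 2 tissues. The 4 groups were left atrium after shunt, left atrium after sham, left ventricle after shunt and left ventricle after sham, with 3 pools in each. All rats were male Sprague Dawley animals of 225 to 275 g, killed at day 28 after the operation. Atrial tissue was the appendage and ventricular tissue the free wall. An aorto-caval shunt joins the aorta to the vena cava and returns arterial blood to the heart, so that both left chambers are loaded with extra volume, whereas a sham operation leaves the vessels unjoined. The tissues are whole muscle, so in every result below fewer cells of a type and less RNA per cell cannot be told apart.

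In the thin filament, actin monomers form the backbone on which myosin heads pull, and tropomyosin lies along the actin strand and covers the myosin sites. Troponin C binds calcium, troponin I holds the filament off in its absence, and troponin T ties the complex to tropomyosin. Several of these proteins come in cardiac, slow skeletal and fast skeletal forms encoded by separate genes. In rodents the heart expresses skeletal alpha-actin (Acta1) and slow skeletal troponin I (Tnni1) before and around birth, and the cardiac forms predominate in the adult.

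Values are on the log2 scale, so that 1 unit is a doubling of signal. Differences are limma estimates with their standard errors, with 3 arrays in each group, and a difference passed when its Benjamini-Hochberg adjusted p over the 18625 probe sets was under 0.05. Levels of different probe sets are not comparable with each other. Arrays of 1 group correlated at 0.990 to 0.997 over all probe sets, arrays of 1 chamber under the other operation at 0.990 to 0.995, and arrays of the other chamber at 0.968 to 0.976. Atrial shunt array 3 deviated most from its group, with a root mean square deviation of 0.200, against 0.0913 to 0.163 on the other 11 arrays. It also had the highest difference between the 3′ and 5′ probe sets of the hexokinase control, 1.44, a measure of how complete the labelled RNA was. That difference was 1.23 on ventricular shunt array 1 and 1.18 on ventricular shunt array 3, and 0.80 to 1.10 on the other 9 arrays. Atrial marker genes were higher in atrium than in ventricle of sham rats in 6 of 6 genes tested, among them Myl4, the atrial essential light chain, by 8.06 ± 0.13. Ventricular markers were lower in atrium in 6 of 6, among them Myl2, the ventricular regulatory light chain, by -9.10 ± 0.19. The tissue labels therefore matched their markers.

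Acta1, Tnni1 and Tpm2 were the members in which every tested probe set differed between the chambers under both operations, and the 250 bases before their start sites are shown for that reason. The sequences are those of RefSeq, assembly GRCr8. The windows are chr19:68784195-68784444 on the minus strand for Acta1, chr13:49781279-49781528 on the plus strand for Tnni1 and chr5:62575727-62575976 on the minus strand for Tpm2. They read 5′ to 3′, with capitals for a CArG box (the site that serum response factor binds), the letters CATTCC of an MCAT element and the letters TATAAA of a TATA box.
Acta1: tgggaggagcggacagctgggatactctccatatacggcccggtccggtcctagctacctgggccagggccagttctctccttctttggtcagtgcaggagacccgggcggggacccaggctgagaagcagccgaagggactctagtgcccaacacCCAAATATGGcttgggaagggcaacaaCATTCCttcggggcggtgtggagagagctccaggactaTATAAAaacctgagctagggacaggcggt
Tnni1: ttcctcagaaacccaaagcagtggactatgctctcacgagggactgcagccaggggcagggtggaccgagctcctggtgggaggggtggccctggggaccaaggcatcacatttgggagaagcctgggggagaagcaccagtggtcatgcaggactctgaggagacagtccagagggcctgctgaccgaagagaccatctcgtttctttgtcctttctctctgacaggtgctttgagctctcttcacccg
Tpm2: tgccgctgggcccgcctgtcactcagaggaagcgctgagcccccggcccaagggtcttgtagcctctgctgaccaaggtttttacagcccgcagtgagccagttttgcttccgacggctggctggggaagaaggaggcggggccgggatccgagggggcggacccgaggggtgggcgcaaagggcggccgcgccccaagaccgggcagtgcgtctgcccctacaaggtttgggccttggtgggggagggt
The Acta1 window held a CArG box 94 to 85 bases before the start site, CATTCC 67 to 62 bases before it and TATAAA 29 to 24 bases before it. The Tnni1 and Tpm2 windows held none of these letters. Both strands were searched, in windows that also took in the first 50 bases of each transcript. Over 33469 such rat windows, 1.64% held a CArG box, 14.2% held CATTCC and 14.2% held TATAAA. Windows were found for 9 of the 10 members, 12 windows in all. A member was counted where any of its windows held the letters, whereas the shares are per window. For 2 members, Acta1 and Actc1, there was a CArG box. The Actc1 match lay within the first 50 bases of the transcript and not before the start site. CATTCC stood in windows of 3 members (Acta1, Tnnt2, Tpm1) and TATAAA in windows of 2 (Acta1, Tnnt1). A further motif, the E-box CANNTG, was in windows of 6 members and in 72.1% of all windows, and the Tpm2 window held none. These matches describe the letters and were not tested as sites.

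Acta1 was the 1 member that passed the test after shunt. Its values were 10.33, 10.25 and 10.60 on the atrial shunt arrays, against 9.24, 9.28 and 8.80 on the atrial sham arrays. The lowest atrial shunt array lay about 1 log2 unit above the highest atrial sham array. The means were 10.39 ± 0.18 and 9.10 ± 0.27 (SD, n = 3 each), and the increase of 1.29 ± 0.17 was a 2.44-fold difference with a 95% interval of 1.88-fold to 3.18-fold (limma, adjusted p = 0.00536). By p, Acta1 ranked 31 among all probe sets in this comparison. Of all probe sets tested, 1.3% passed in the atrium after shunt, and 0.478% passed and were higher.

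In the ventricle Acta1 read 11.58, 12.12 and 12.005 on the shunt arrays, against 11.92, 11.51 and 11.90 on the sham arrays. The groups overlapped there, and the difference was 0.13 ± 0.17 with an interval of -0.25 to 0.50 (limma, adjusted p = 0.782). The atrial effect exceeded the ventricular effect by 1.16 ± 0.25, with an interval of 0.63 to 1.70. Over all probe sets this difference of effects did not pass (limma, unadjusted p = 0.00051, adjusted p = 0.257). No probe set of the 18625 passed in that contrast, and 6.6% had an unadjusted p under 0.05.

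Acta1 was lower in atrium than in ventricle under both operations. After shunt the atrial mean was 10.39 and the ventricular mean 11.90, a difference of -1.51 ± 0.17, or 2.84-fold (limma, adjusted p = 2.75e-05). In sham rats the atrial mean was 9.10 and the ventricular mean 11.78, a difference of -2.67 ± 0.17, or 6.37-fold (limma, adjusted p = 2.32e-07). The order of the groups from low to high was atrial sham, atrial shunt, ventricular sham and ventricular shunt, and the last pair did not differ beyond its spread. The coding sequences of Acta1 and Actc1 are closely alike, and whether the Acta1 probe set also binds Actc1 RNA was not tested.

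Some markers of ventricular muscle also rose in the atrium after shunt. Over the 6 ventricular markers the mean log2 level was 6.27 to 6.72 on the atrial shunt arrays, against 5.40 to 5.90 on the atrial sham arrays. In the ventricle it was 10.60 to 10.67 after shunt, against 10.37 to 10.49 after sham. Of the 6 genes, 3 rose in the atrium, namely Myh7, beta-myosin heavy chain, by 1.63 ± 0.18 (adjusted p = 0.00228), Kcnip2, a potassium channel subunit, by 1.33 ± 0.20 (adjusted p = 0.0108), and Myl3, the ventricular essential light chain, by 1.13 ± 0.21 (adjusted p = 0.0256). The other 3 did not pass, and 1.40% of all genes were called in this comparison. Myl2 read 5.12, 5.67 and 4.91 on the atrial shunt arrays, against 4.90, 4.16 and 4.50 on the atrial sham arrays (adjusted p = 0.0993), and at least 13.61 on every ventricular array. Irx4, a ventricular transcription factor, read 2.95, 3.001 and 3.24 on the atrial shunt arrays, against 3.36, 3.22 and 3.58 on the atrial sham arrays, and at least 7.41 in ventricle. All 6 atrial values lie below the brightness limit of 4.01, and Irx4 was tested because of its ventricular level. Hey2 differed by 0.36 ± 0.09 (adjusted p = 0.0845). In ventricle 0 of the 6 passed after shunt, against 0.113% of all genes. There Myh7 read 11.55, 11.82 and 11.39 on the shunt arrays, against 10.84, 10.43 and 10.55 on the sham arrays. The part of these markers in the Acta1 result was not tested.

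**Figure D1:**
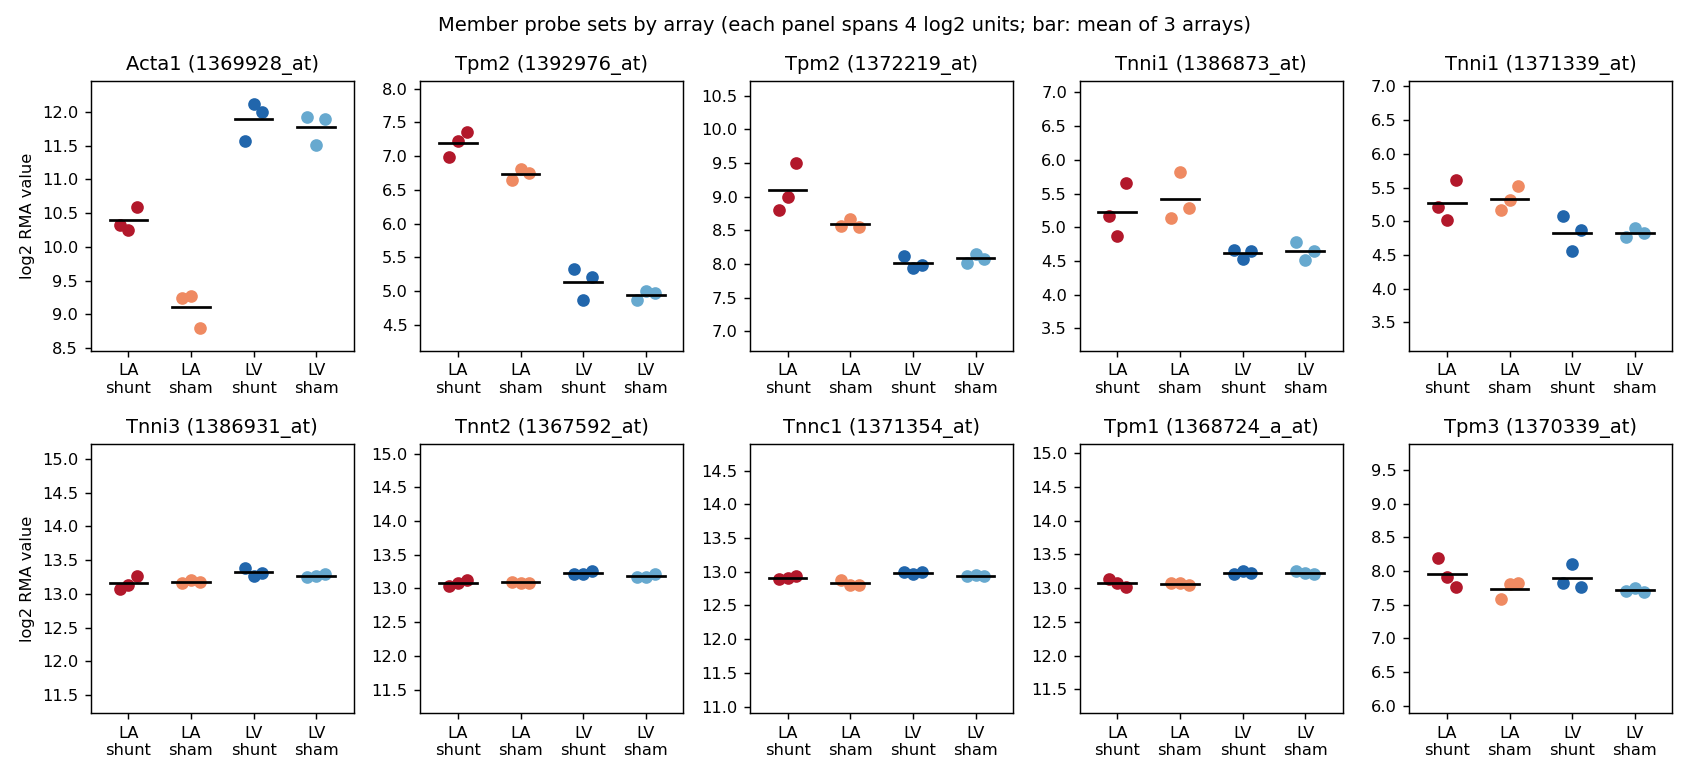
Log2 values (y axis) of 10 probe sets of the thin filament genes on each of the 12 arrays, by group (x axis), with points for arrays and bars for the mean of 3. In the Acta1 panel the 3 atrial shunt arrays, at 10.25 to 10.60, lie above the 3 atrial sham arrays, at 8.80 to 9.28, and below all ventricular arrays.

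Of 4 other actin genes listed (Actg1, Acta2, Actg2 and Actb), 3 were tested, and 0 passed after the shunt in either chamber, against 1.40% of all genes in atrium and 0.113% in ventricle. Actg2, the gamma actin of smooth muscle, was lower in atrium than in ventricle of sham rats by -0.35 ± 0.10 (limma, adjusted p = 0.0093), with means of 4.50 and 4.85.

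Tnnc1 encodes the troponin C shared by heart and slow skeletal muscle. It read 12.90, 12.90 and 12.94 on the atrial shunt arrays, against 12.87, 12.80 and 12.80 on the atrial sham arrays. The groups did not overlap, but the difference of 0.09 ± 0.05 did not pass (limma, adjusted p = 0.467). Arrays did not overlap in this comparison for 4 of the 20 member probe sets, Acta1, both of Tpm2 and Tnnc1, against 20.7% of all probe sets. In the ventricle Tnnc1 read 12.99, 12.97 and 12.996 after shunt, against 12.94, 12.95 and 12.93 after sham, a difference of 0.04 ± 0.05. Atrium and ventricle differed by -0.07 ± 0.05 after shunt and by -0.12 ± 0.05 in sham rats, and neither passed.

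Troponin I is made from Tnni3, the adult cardiac form, and Tnni1, the slow skeletal form. Tnni3 read 13.07, 13.13 and 13.27 on the atrial shunt arrays, against 13.16, 13.21 and 13.17 on the atrial sham arrays. The values overlapped, and the interval of the difference was -0.16 to 0.12. In the ventricle Tnni3 read 13.38, 13.27 and 13.32 after shunt, against 13.25, 13.27 and 13.29 after sham, with an interval of -0.09 to 0.19.

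Tnni1 was higher in atrium than in ventricle. Its first probe set, 1371339_at, read 5.21, 5.02 and 5.61 on the atrial shunt arrays, against 5.17, 5.31 and 5.53 on the atrial sham arrays. The ventricular shunt arrays read 5.07, 4.55 and 4.86, and the ventricular sham arrays 4.77, 4.90 and 4.82. Its second probe set, 1386873_at, read 5.17, 4.87 and 5.65 on the atrial shunt arrays, against 5.14, 5.82 and 5.28 on the atrial sham arrays, and 4.66, 4.53 and 4.65 in ventricle after shunt, against 4.78, 4.52 and 4.66 in ventricle after sham. The atrial values overlapped between operations, and so did the ventricular ones.

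After shunt the atrial excess of Tnni1 was 0.45 ± 0.16 for 1371339_at (limma, adjusted p = 0.0389) and 0.61 ± 0.19 for 1386873_at (adjusted p = 0.0238). In sham rats it was 0.50 ± 0.16 (adjusted p = 0.0208) and 0.76 ± 0.19 (adjusted p = 0.00691). These calls were not firm. After shunt 1371339_at lost its call without 1 of 7 arrays, atrial shunt 1 or 3, atrial sham 2, ventricular shunt 2 or 3 or ventricular sham 1 or 3, with values of 0.28 to 0.48, and 1386873_at lost it without atrial shunt array 3 (0.40, adjusted p = 0.0806), ventricular shunt array 2 (0.57, adjusted p = 0.0633) or ventricular shunt array 3 (0.63, adjusted p = 0.0507). With array weights the values after shunt were 0.26 for 1371339_at (adjusted p = 0.168) and 0.41 for 1386873_at (adjusted p = 0.0925), and neither passed. Fitted on only the groups compared, 1371339_at was 0.45 (adjusted p = 0.0981). Without the 3 arrays of highest hexokinase difference, an alternative added after seeing the data, 1386873_at was 0.49 (adjusted p = 0.179). In sham rats 1371339_at lost its call without atrial sham array 3 (0.41, adjusted p = 0.0845), ventricular sham array 1 (0.47, adjusted p = 0.0626) or ventricular sham array 3 (0.50, adjusted p = 0.0519), whereas 1386873_at kept it in all 22 alternative fits. The shunt itself moved Tnni1 by -0.06 ± 0.16 and -0.18 ± 0.19 in atrium and by -0.00 ± 0.16 and -0.03 ± 0.19 in ventricle, with no call. Both probe sets are dim, above 57% and 56% of the probe sets on the array.

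Within an array, the gap between the Tnni1 and Tnni3 values was closer in atrium. Tnni1 minus Tnni3 averaged -7.88 ± 0.23 on atrial shunt arrays and -8.49 ± 0.21 on ventricular shunt arrays, and -7.84 ± 0.18 on atrial sham arrays and -8.44 ± 0.06 on ventricular sham arrays (SD, n = 3 each). The chamber difference of 0.60 had a two-sided exact permutation p of 0.005, the smallest this design can give, and 0.015 after adjustment over 6 comparisons. Tnni1 1371339_at alone differed by 0.45 after shunt and 0.50 in sham rats, so this test largely restates the Tnni1 result. Shunt and sham arrays differed in this gap by -0.04 in atrium and -0.05 in ventricle (exact permutation p = 0.9 in each chamber, where 0.1 is the smallest possible). A difference between 2 probe sets is no ratio of 2 transcripts, and only its change between groups is read.

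Troponin T is made from Tnnt2, the cardiac form, and Tnnt1, the slow skeletal form. The bright Tnnt2 probe set 1367592_at read 13.04, 13.08 and 13.13 on the atrial shunt arrays, against 13.09, 13.09 and 13.09 on the atrial sham arrays. In ventricle it read 13.22, 13.22 and 13.25 after shunt, against 13.17, 13.16 and 13.21 after sham. After shunt it was lower in atrium than in ventricle by -0.14 ± 0.05, or 1.11-fold (limma, adjusted p = 0.0488), and in sham rats by -0.09 ± 0.05, which did not pass (adjusted p = 0.176). The call after shunt held in 6 of 24 alternative fits, and of the 12 fits that left out 1 array it held in 1, without atrial shunt array 3. Whether the 2 chamber differences differ from each other is the difference of the shunt effects, -0.05 ± 0.08 (limma, adjusted p = 0.981).

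The single Tnnt1 probe set was below the brightness limit of 4.01 and was not tested. It read 3.83, 3.64 and 3.88 on the atrial shunt arrays, against 3.68, 3.73 and 3.72 on the atrial sham arrays, and 3.03, 3.23 and 3.54 in ventricle after shunt, against 3.55, 3.22 and 3.52 in ventricle after sham. All 6 atrial values lay above all 6 ventricular values.

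The fast skeletal troponins were hardly measurable. Of the 4 genes listed with them, Tnni2, Tnnt3, Tnnc2 and Tpm4, 2 were tested, and 0 passed in any comparison. Of all genes, 1.40% were called in atrium and 0.113% in ventricle for shunt against sham. Between the chambers 45.6% of all genes were called after shunt and 50.2% in sham rats.

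Tpm1 encodes alpha-tropomyosin, the main striated tropomyosin of the heart, and makes many transcripts by alternative splicing. Its brightest probe set, 1368724_a_at, read 13.14, 13.08 and 13.02 on the atrial shunt arrays, against 13.07, 13.08 and 13.04 on the atrial sham arrays, with an interval of -0.11 to 0.14 for the shunt effect. In ventricle it read 13.20, 13.26 and 13.22 after shunt, against 13.26, 13.22 and 13.21 after sham, with an interval of -0.13 to 0.12. It was lower in atrium than in ventricle by -0.15 ± 0.06 after shunt (limma, adjusted p = 0.0519) and by -0.17 ± 0.06 in sham rats (adjusted p = 0.0284). The sham call held in 15 of 24 alternative fits.

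The probe sets of Tpm1 gave different patterns. Among the 5 tested, 1368724_a_at correlated over the 12 arrays with 1371241_x_at at 0.89 and with 1370288_a_at at 0.68, but with 1370287_a_at at -0.60 and with 1395794_at at 0.07. The atrium minus ventricle difference in sham rats was negative for 4 of the 5 and 0.19 ± 0.09 for 1370287_a_at (limma, adjusted p = 0.111). Which transcripts each probe set reads was not looked up.

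The probe set 1395794_at set some arrays apart. It read 6.30, 6.11 and 7.66 on the atrial shunt arrays, against 6.29, 6.03 and 6.08 on the atrial sham arrays, and 7.03, 6.31 and 7.35 in ventricle after shunt, against 6.46, 6.50 and 6.37 after sham. The shunt effects of 0.56 ± 0.34 in atrium and 0.46 ± 0.34 in ventricle did not pass (limma, adjusted p = 0.481 and 0.574). The 3 values above 7 came from the 3 arrays with the highest hexokinase difference, 1.18 to 1.44. The dim Tnnt2 probe set 1390061_at, not tested, was also highest on 2 of these arrays, at 5.73 on atrial shunt array 3 and 4.19 on ventricular shunt array 3, against 3.10 to 3.86 on the other 10 arrays. The part of RNA completeness in these values was not tested.

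**Figure D2:**
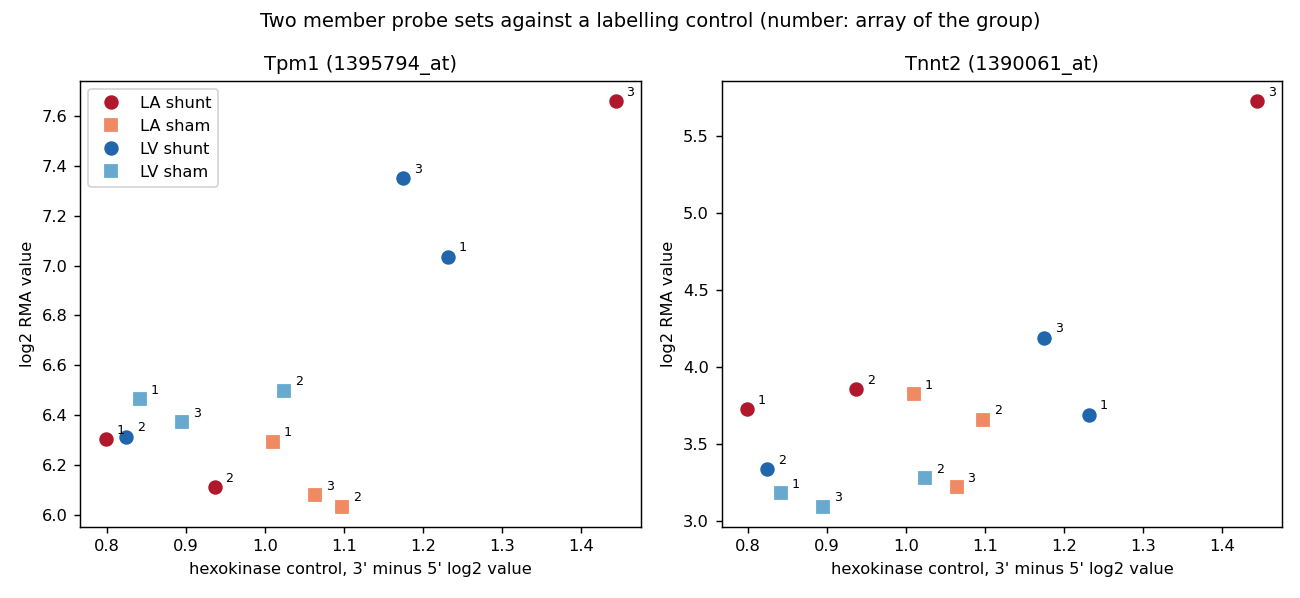
Log2 values (y axes) of a Tpm1 and a Tnnt2 probe set against the hexokinase control difference, 3′ minus 5′ in log2 (x axis), with 1 point per array. The Tpm1 values of 7.03, 7.35 and 7.66 lie at hexokinase differences of 1.18 to 1.44, right of all other arrays.

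Tpm2 encodes beta-tropomyosin, a form of slow skeletal and smooth muscle that the heart also expresses. Probe set 1372219_at read 8.79, 8.99 and 9.49 on the atrial shunt arrays, against 8.57, 8.66 and 8.55 on the atrial sham arrays. Probe set 1392976_at read 6.99, 7.22 and 7.36 on the atrial shunt arrays, against 6.65, 6.81 and 6.75 on the atrial sham arrays. In both, every atrial shunt array lay above every atrial sham array. The differences were 0.50 ± 0.14 with an interval of 0.19 to 0.80 and 0.45 ± 0.12 with an interval of 0.19 to 0.72, and neither passed (limma, adjusted p = 0.114 and 0.0963).

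Whether Tpm2 passed in atrium depended on the setting. Without atrial shunt array 3, the difference of 1372219_at was 0.30 (limma, adjusted p = 0.101) and that of 1392976_at was 0.37 (adjusted p = 0.158). Without ventricular shunt array 2, 1392976_at passed at 0.45 (adjusted p = 0.0467). With the hexokinase difference as a covariate the estimates stayed at 0.50 (adjusted p = 0.00498) and 0.45 (adjusted p = 0.00756), and both probe sets passed. Without the 3 arrays of highest hexokinase difference they were 0.30 (adjusted p = 0.0879) and 0.37 (adjusted p = 0.0606), and neither passed. Both of these alternatives were added after seeing the data. Both passed with limma's array weights, at 0.41 (adjusted p = 0.0363) and 0.43 (adjusted p = 0.0239).

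In ventricle 1372219_at read 8.12, 7.94 and 7.99 after shunt, against 8.02, 8.15 and 8.08 after sham, and 1392976_at read 5.33, 4.87 and 5.21, against 4.87, 4.996 and 4.96. The groups overlapped in both, with differences of -0.07 ± 0.14 and 0.19 ± 0.12. The atrial effect exceeded the ventricular one by 0.57 ± 0.20 for 1372219_at (limma, unadjusted p = 0.0139, adjusted p = 0.61) and by 0.26 ± 0.17 for 1392976_at (adjusted p = 0.874).

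Tpm2 was higher in atrium than in ventricle under both operations. For 1392976_at the excess was 2.05 ± 0.12 after shunt, or 4.16-fold (limma, adjusted p = 1.05e-07), and 1.79 ± 0.12 in sham rats, or 3.47-fold (adjusted p = 2.79e-07). For 1372219_at it was 1.08 ± 0.14 after shunt, or 2.11-fold (adjusted p = 6.66e-05), and 0.51 ± 0.14 in sham rats, or 1.42-fold (adjusted p = 0.0102). The 2 probe sets correlated at 0.93 over the 12 arrays but differed in the size of the excess.

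Markers of fibroblasts were also higher in atrium than in ventricle. Over 8 tested markers the mean log2 level was 9.57 to 9.996 on the atrial shunt arrays and 9.11 to 9.40 on the ventricular shunt arrays. It was 9.81 to 9.83 on the atrial sham arrays and 9.13 to 9.23 on the ventricular sham arrays. After shunt 7 of the 8 were higher in atrium, with a median difference of 0.61, against 45.6% of all genes called in either direction. In sham rats 6 of the 8 were higher, with a median difference of 0.68, against 50.2% of all genes. The part of fibroblast RNA in the Tpm2 chamber difference was not tested.

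For smooth muscle, over 7 tested markers the mean log2 level was 6.65 to 6.86 on the atrial shunt arrays, against 6.76 to 6.77 on the atrial sham arrays. In ventricle it was 6.74 to 6.92 after shunt, against 6.90 to 6.91 after sham. In sham rats 3 of the 7, Myh11, Tagln and Actg2, were lower in atrium and 0 were higher, against 50.2% of all genes called. The median chamber difference there was -0.23. After shunt 1 of the 7 was lower in atrium and 0 were higher, with a median of -0.04, against 45.6% of all genes called. For shunt against sham 0 of 7 passed in either chamber, against 1.40% of all genes in atrium and 0.113% in ventricle.

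Within an array, Tpm2 minus Tpm1 averaged -3.99 ± 0.42 on atrial shunt arrays and -4.47 ± 0.05 on atrial sham arrays (SD, n = 3 each). The ventricular averages were -5.21 ± 0.12 after shunt and -5.15 ± 0.09 after sham (SD, n = 3 each). Atrium exceeded ventricle by 0.95 (two-sided exact permutation p = 0.005, adjusted 0.015 over 6 comparisons). Tpm2 1372219_at alone differed by 1.08 after shunt and 0.51 in sham rats, so this test largely restates the Tpm2 chamber result. In atrium the shunt and sham arrays did not overlap, with a difference of 0.48 and an exact permutation p of 0.1, which is the smallest that 3 against 3 arrays can give. In ventricle the difference was -0.07 (exact permutation p = 0.5).

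Tpm3 encodes slow skeletal tropomyosin and several cytoskeletal forms. Of its 12 probe sets 7 were tested, and none passed after the shunt by limma in either chamber, nor had an unadjusted p under 0.05. The brightest, 1370339_at, read 8.19, 7.91 and 7.76 on the atrial shunt arrays, against 7.58, 7.81 and 7.82 on the atrial sham arrays, a difference of 0.22 ± 0.12 (adjusted p = 0.419). In ventricle it read 7.82, 8.10 and 7.76 after shunt, against 7.70, 7.74 and 7.69 after sham, a difference of 0.19 ± 0.12 (adjusted p = 0.49). In all 7 tested probe sets atrial shunt array 3 was the lowest of the atrial shunt arrays.

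Between chambers Tpm3 gave 0 calls of 7 after shunt, against 41.9% of all probe sets, and 1 of 7 in sham rats, against 47.2%. The probe set 1371184_x_at was lower in atrium than in ventricle of sham rats by -0.20 ± 0.08 (limma, adjusted p = 0.0495), with means of 5.47 and 5.67, and this held in 7 of 23 alternative fits. The brightest probe set differed by 0.06 ± 0.12 after shunt and by 0.03 ± 0.12 in sham rats.

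Counted over the members, the atrial shunt comparison gave 1 call of 20 probe sets, Acta1, against 1.3% of all probe sets. The median difference was 0.04 over the members and -0.01 over all probe sets. The ventricular shunt comparison gave 0 calls of 20 by limma, against 0.107% of all probe sets. At an unadjusted p under 0.05 there were also 0 of 20 members, against 14.7% of all probe sets. Its median difference was 0.05 over the members and -0.01 over all probe sets. The smallest ventricular p belonged to Tpm3 1383986_at, at 0.23 ± 0.11 (limma, adjusted p = 0.353). Arrays did not overlap there for 4 members, all higher after shunt (Tpm3 1383986_at and 1370339_at, Tnnt2 1367592_at and Tnnc1), against 20.8% of all probe sets.

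**Figure D3:**
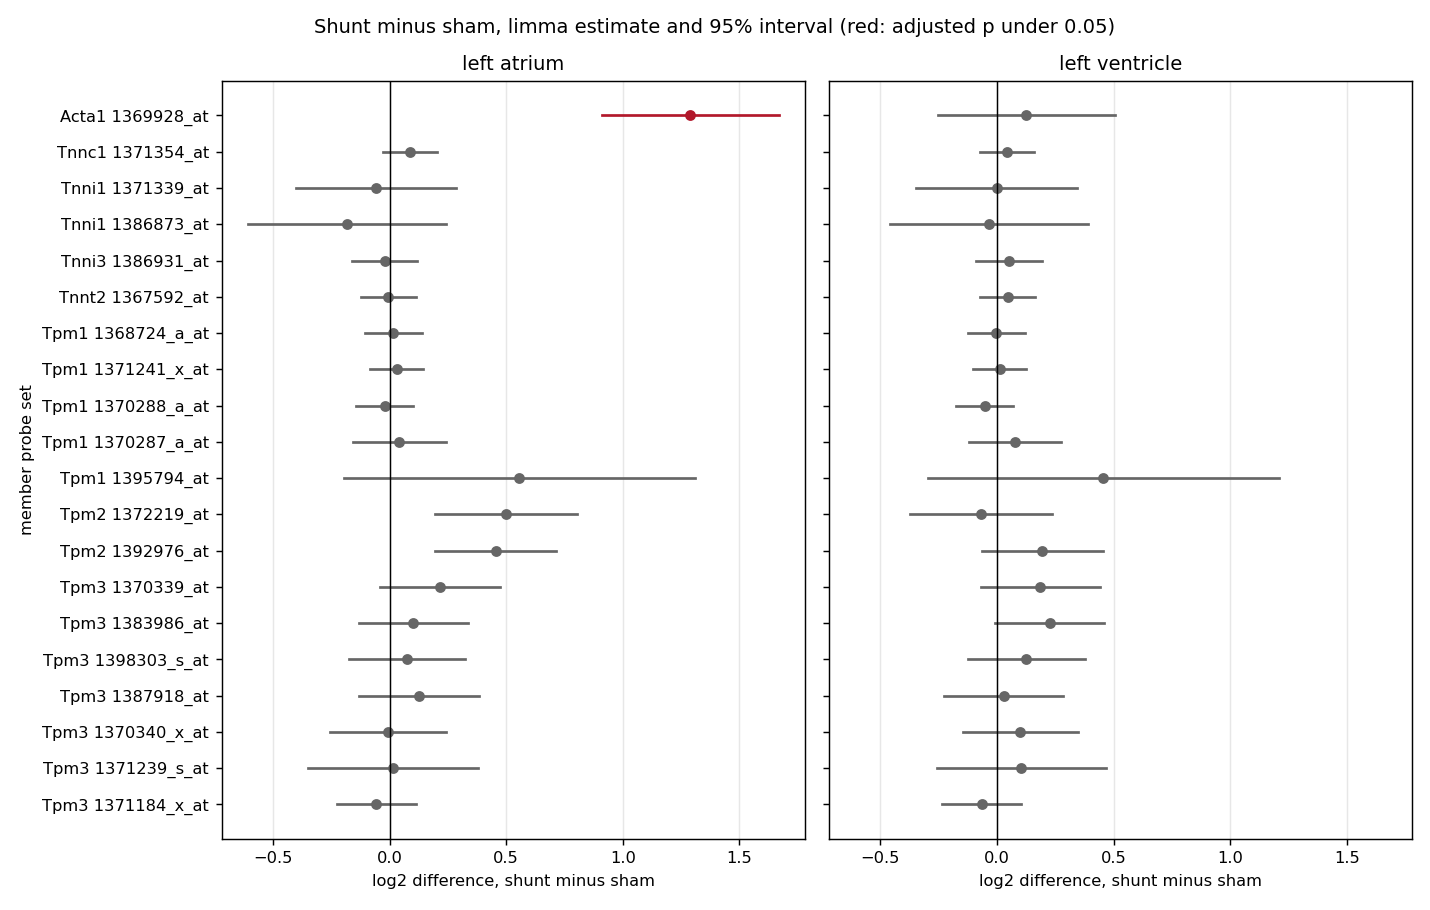
Shunt minus sham difference in log2 (x axis) of the 20 tested probe sets (y axis) in left atrium and left ventricle, as limma estimates with 95% intervals. Acta1 in atrium, at 1.29, is the only estimate marked as passing, and both Tpm2 intervals in atrium lie above 0 without passing over all probe sets.

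Between chambers the members gave more calls, but so did the array as a whole. After shunt 6 of 20 probe sets passed, 4 higher and 2 lower in atrium, against 41.9% of all probe sets, of which 22.4% were higher and 19.4% lower. In sham rats 7 of 20 passed, 4 higher and 3 lower in atrium, against 47.2% of all probe sets, of which 25.2% were higher and 22.0% lower. The 4 higher in both were the probe sets of Tpm2 and Tnni1. Acta1 was lower in both. Arrays did not overlap for 10 of 20 members after shunt, against 49.3% of all probe sets, and for 15 of 20 in sham rats, against 61.2%.

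The chamber differences varied in size among the members. The probe sets of Tnnc1, Tnni3, Tnnt2 (1367592_at) and Tpm1 (1368724_a_at) stood above at least 99.9% of the probe sets on the array, and their atrium minus ventricle differences lay between -0.17 and -0.07. Whether the scale is compressed at such brightness was not tested. The differences of Acta1, Tnni1 and Tpm2, whose probe sets were less bright, ran from -2.67 to 2.05. The 7 probe sets of Tpm3, less bright as well, had differences of -0.26 to 0.26. The Tpm1 probe set 1370287_a_at differed by 0.15 after shunt and 0.19 in sham rats.

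**Figure D4:**
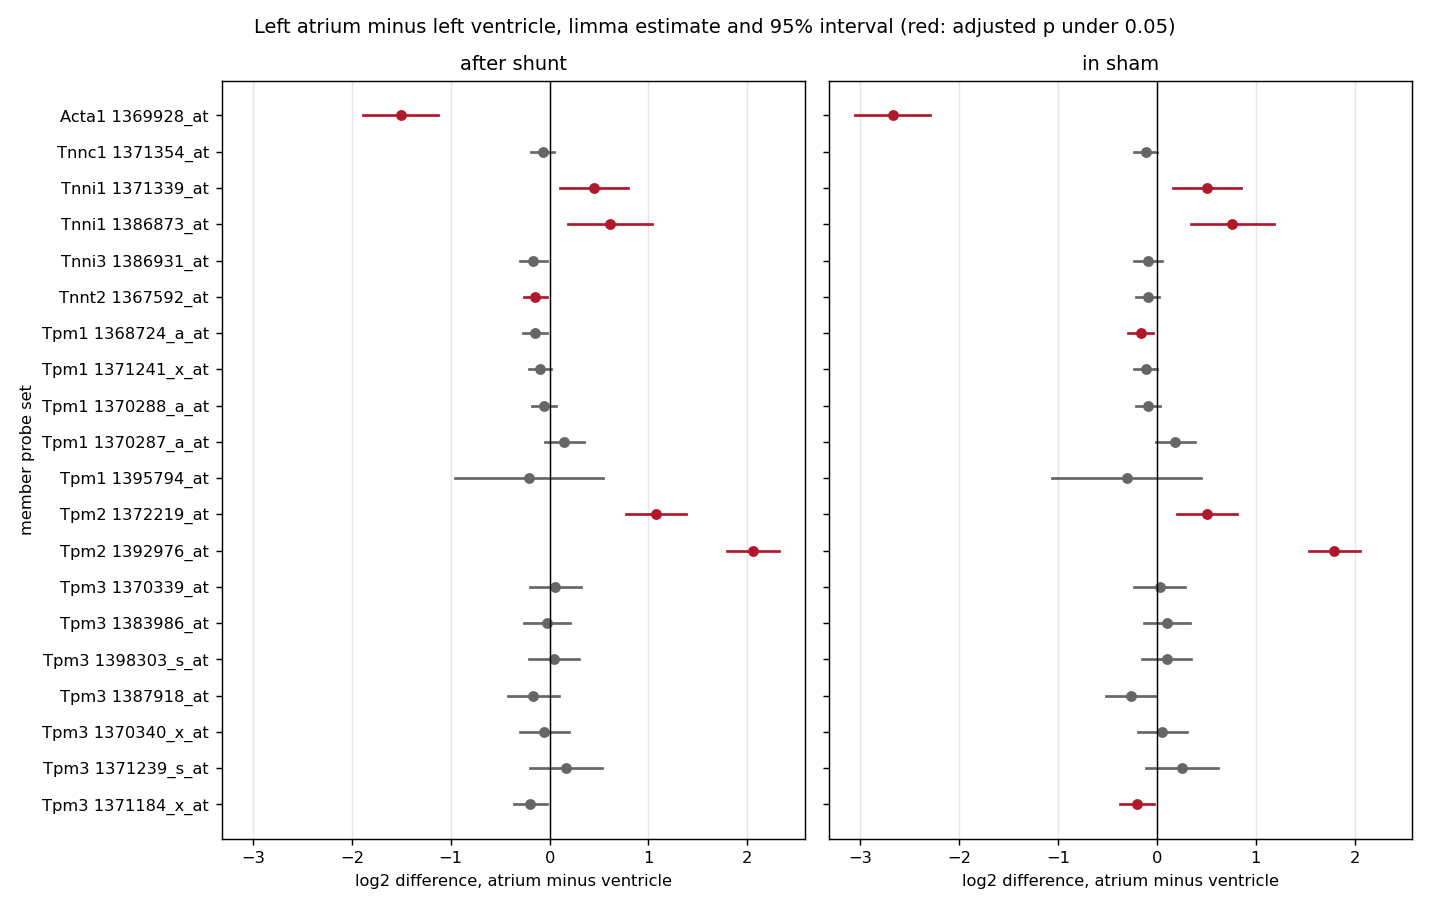
Left atrium minus left ventricle in log2 (x axis) of the 20 tested probe sets (y axis) after shunt and in sham rats, as limma estimates with 95% intervals. Tpm2 and Tnni1 lie right of 0 and Acta1 lies left of it, at -1.51 after shunt and -2.67 in sham rats.

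The genes most alike to these members in pattern were taken by Pearson's r over the 12 arrays among 10605 other genes. For Acta1 they were LOC100909782 (0.978), LOC102553868 (0.972) and Adprhl1 (0.967), for Tnni1 they were Cox16 (0.937), Commd6 (0.933) and Ang (0.928), and for Tpm2 they were Rfng (0.955), Lrrfip1 (0.952) and Hspb3 (0.949). The 12 arrays are 4 groups of 3, so these correlations mostly restate the group means. Adprhl1 averaged 8.76 in atrium after shunt, against 8.26 after sham, and 9.85 in ventricle after shunt, against 9.80 after sham. Hspb3, a small heat shock protein of muscle, averaged 9.84 in atrium after shunt, against 9.64 after sham, and 8.94 in ventricle after shunt, against 8.95 after sham.

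Genes that cap, measure out and assemble the thin filament were listed separately, 26 in all, of which 23 were tested. In atrium after shunt 0 rose and 1 fell, against 1.40% of all genes called. It was Klhl40, a Kelch protein that stabilises nebulin and leiomodin, with a mean of 6.79 after shunt, against 7.26 after sham, a difference of -0.47 ± 0.09 (limma, adjusted p = 0.0248). The list's median difference was -0.06, against -0.01 over all genes. In ventricle 0 passed, against 0.113% of all genes. Between the chambers after shunt 7 were higher and 5 lower in atrium, against 45.6% of all genes called. The atrium minus ventricle difference was -2.63 ± 0.14 for Lmod3, a leiomodin that starts actin filaments, 1.29 ± 0.07 for Klhl41, a Kelch protein of muscle, and -0.91 ± 0.06 for Fhod3, a formin. In sham rats 8 were higher and 5 lower, against 50.2% of all genes, with Lmod3 at -2.32 ± 0.14, Klhl41 at 1.30 ± 0.07 and Fhod3 at -0.91 ± 0.06.

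Serum response factor, its partners and other regulators of cardiac genes formed a list of 24, of which 21 were tested. In atrium after shunt 0 rose and 1 fell, against 1.40% of all genes called. It was Purb, a single-strand DNA-binding protein known to repress muscle genes, with a mean of 6.96 after shunt, against 7.39 after sham, a difference of -0.43 ± 0.07 (limma, adjusted p = 0.0163). The list's median difference was -0.11, against -0.01 over all genes. In ventricle 0 passed, against 0.113% of all genes. Between the chambers after shunt 7 were higher and 4 lower in atrium, against 45.6% of all genes called. The atrium minus ventricle difference was 3.36 ± 0.24 for Tbx5, a T-box factor of the atria, -3.10 ± 0.07 for Fhl2, a LIM protein of muscle, and -0.49 ± 0.07 for Purb. In sham rats 7 were higher and 3 lower, against 50.2% of all genes called. Tbx5 stood there at 3.09 ± 0.24, Fhl2 at -2.95 ± 0.07 and Mef2a, a factor of muscle genes, at 0.58 ± 0.07.

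The thick filament list held 13 myosin and myosin-binding genes, 12 of them tested. In atrium after shunt it had 2 rises, Myh7 and Myl3, whose values stand above, and 0 falls, against 1.40% of all genes called. Its median difference was -0.00, against -0.01 over all genes. In ventricle 0 passed, against 0.113% of all genes.

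Regulators of splicing, 15 of 15 tested, had 0 calls after the shunt in either chamber. The shares of all genes called were 1.40% in atrium and 0.113% in ventricle. Between the chambers after shunt 3 were higher and 1 lower in atrium, against 45.6% of all genes called in either direction. The differences were 0.37 ± 0.05 for Rbm24, 0.31 ± 0.08 for Celf2 and -0.23 ± 0.07 for Rbm38. In sham rats 4 were higher and 0 lower, against 50.2% of all genes called. The 4 included Rbfox1 (0.52 ± 0.10), Rbm24 (0.24 ± 0.05) and Celf2 (0.28 ± 0.08).

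Kinases and phosphatases that act on troponin I, 15 of 16 tested, had 0 calls after the shunt in either chamber. The shares of all genes called were 1.40% in atrium and 0.113% in ventricle. Between the chambers after shunt 3 were higher and 4 lower in atrium, against 45.6% of all genes called. The atrium minus ventricle difference was 1.23 ± 0.14 for Ppp1r1a, an inhibitor of protein phosphatase 1, -0.63 ± 0.07 for Tnni3k, a kinase that binds cardiac troponin I, and -0.28 ± 0.06 for Ppp2r5a, a phosphatase subunit. In sham rats 1 was higher and 5 lower, against 50.2% of all genes called. Ppp1r1a stood there at 1.61 ± 0.14, Tnni3k at -0.68 ± 0.07 and Prkaca, a catalytic subunit of protein kinase A, at -0.42 ± 0.08.

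Markers of skeletal muscle were mostly too dim to test, 4 of 13 passing the brightness limit. In atrium after shunt Myh1 rose by 0.53 ± 0.06 (limma, adjusted p = 0.00286), and Tnni2, Ckm and Atp2a1 did not pass. The myosin heavy chain genes are close copies of each other, and whether the Myh1 probe set also binds RNA of Myh7, which rose in the same arrays, was not tested. Markers of fibroblasts (8 tested), endothelium (5), macrophages (6) and atrial muscle (6) had 0 calls after the shunt in either chamber. Of all genes, 1.40% were called in atrium and 0.113% in ventricle after the shunt, so lists this short could have 0 calls whether or not they differ from other genes.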

How the data were processed

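The deposited values are log2 RMA values, 1 per probe set and array, per the submitters' processing notes for RMA and from the values, which run from 2.05 to 14.29; the authors' RMA version and the arrays normalized together are not given in the sources used here. Biotin-labelled cRNA came from 10 µg of total RNA, per the labels' protocols. Depth does not apply to arrays, and 3 arrays per group limit the precision.

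Of 31099 probe sets, 57 controls were left out, and those with a mean at or above the 40th percentile (log2 4.01) were tested. Of the 31042 others, 20826 had 1 symbol, 436 several and 9780 none; symbols come from the platform annotation, updated to the gene table of GRCr8, and no array coordinates are given. limma 3.58.1 in R 4.3.3 fitted 1 mean per group over 12 arrays without a block (8 residual degrees of freedom, prior 3.68); p-values are two-sided. The labels' design text calls the pools biological replicates, so a p-value reflects how far pools of 1 group differ. Exact permutation tests used scipy 1.17.1. Of 4 planned isoform pairs, Acta1 with Actc1 and Tnnt1 with Tnnt2 could not be run, so 6 tests were adjusted together. The fit was also run on simulated data, and the outcome is not given here. Members and lists were chosen with earlier results of these data known. Every tested member probe set is reported in the text or a figure. Of the untested ones, values are given for Tnnt1 and the second Tnnt2 probe set, and those of Tpm1 and Tpm3 are not given. A gene's representative is its brightest tested probe set. Up to 3 passing genes of each list are named by smallest p. Hey2, Myl2, Irx4, Tnni2, Ckm, Atp2a1, Myh11, Tagln and the second Tpm1 and Tnnt2 probe sets are described after their values were seen. Same-numbered arrays correlated at -0.24 to 0.44 in their deviations from the group means, over 0.1 in 4 of 18 pairs. These 4 are among the 6 atrium and ventricle pairs of 1 operation, of which 5 correlated best with their own number. Of the other 2 of the 6, the pair at 0.07 was among these 5 and the pair at -0.24 was not. These values do not settle whether the numbers pair the samples, and the numbers were not taken as pairing. The main chamber comparisons and the permutation tests therefore treat atrial and ventricular pools as independent. A replicate block within operation is among the alternatives. The alternatives were another filter, normalization, prior, set of samples or probe set summary, array weights, a replicate block and leaving out each array; the hexokinase covariate and the fit without 3 arrays were added after seeing the data.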

Additional observations from a re-analysis of the deposited data

Results flagged for a closer look

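A signal stood out in a probe set too dim to be tested. The second Tnnt2 probe set, 1390061_at, read 5.73 on atrial shunt array 3, against 3.82 on the highest of the 6 sham arrays of both chambers. It came up because it lay outside the comparisons and above every sham array. The other atrial shunt arrays read 3.73 and 3.86, and the bright Tnnt2 probe set read 13.13 on that array, against 13.04 and 13.08 on the other atrial shunt arrays.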

How the results depend on the processing

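Of the 20 member probe sets, the number of genes that passed in the atrium after shunt was 1 in the main analysis. It was 2, Acta1 and Tpm2, with array weights, with the hexokinase difference as a covariate and without ventricular shunt array 2, and ran from 1 to 2 when each array was left out. After shunt 4 genes differed between chambers. This was 7 with the hexokinase covariate and 2, Acta1 and Tpm2, without ventricular shunt array 2 or 3, and ran from 2 to 6 when each array was left out. In sham rats 5 genes differed between atrium and ventricle. This was 3, Acta1, Tnni1 and Tpm2, with the replicate block within operation, with each gene's probe sets averaged and without atrial sham array 1, 2 or 3 or ventricular sham array 1 or 2, and ran from 3 to 5 when each array was left out. The ventricular shunt effect and the difference of effects gave 0 member genes in every alternative run. None of the reported values of called probe sets changed sign.

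The atrial Acta1 increase kept its call in all 23 alternatives, between 1.14 and 1.38 (limma, adjusted p of 0.00173 to 0.0393, the highest when only atrial arrays were fitted). Its chamber differences kept their call in all 24 alternatives under both operations. The difference of the shunt effects on Acta1 ran from 0.84 to 1.30 and never passed (adjusted p of 0.101 to 0.566). The replicate block, with the number as a block over all groups, left Acta1 as the 1 member called in atrium after shunt (adjusted p = 0.0154), with 208 probe sets called in all, against 243 without it. It gave 3 genes between chambers after shunt and 4 in sham rats. The replicate block within operation ended the sham calls of Tpm1 (-0.17, adjusted p = 0.0579) and Tpm3 (-0.20, adjusted p = 0.0753) and the call of Tnnt2 after shunt (-0.14, adjusted p = 0.0856). Of 18 same-numbered pairs, 8 correlated best with their own number.

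Over all probe sets the atrial shunt count of 243 was 43 with only the atrial arrays, 910 with array weights, 426 with a trended prior, 758 with the hexokinase covariate and 642 without the 3 arrays of highest hexokinase difference, and ran from 66 to 469 when each array was left out, the highest without atrial shunt array 3. The ventricular count of 20 was 10, 160, 96, 215 and 45 under the same 5 alternatives, 82 at the 60th percentile filter, and ran from 0 to 118 when each array was left out. Its 11 of 20 higher became 16 of 38 after a further quantile normalization. The count of 0 for the difference of effects ran up to 19, without atrial shunt array 3. The isoform differences between chambers kept an adjusted exact permutation p of 0.015 to 0.03 in 15 alternatives. At the 60th percentile filter Tnni1 was not tested. The 3 arrays per group, the dimness of Tnni1, Tnnt1 and the second Tnnt2 probe set, and Tnnc1, Tnni3, Tnnt2 and Tpm1 near the top of the scale limit what could be seen.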
